A study of Mus musculus with 32 samples.

Results

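The SLC25 genes encode the mitochondrial carriers, and 37 of them were followed through the day in the interscapular brown fat of mice (iBAT), a depot between the shoulder blades that burns fuel to make heat. Members were the genes of the count table whose Ensembl identifier maps to a mouse symbol made of Slc25a and a number, with at least 320 counts summed over all 32 libraries. Slc25a20 and Slc25a44 were left out by this rule and were not analysed here. Of the 50686 genes of the table, a total of 47 carried such a symbol. The 8 genes under the minimum were Slc25a13 (212 counts in all), Slc25a18 (185), Slc25a2 (117), Slc25a31 (104), Slc25a43 (46), Slc25a21 (35), Slc25a41 (11) and Slc25a54 (0). The member nearest to the minimum was Slc25a14 with 982 counts. No difference between times of day enters the rule itself, although members were chosen with earlier results of these data known.

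Tissue came from non-fasted, chow-fed male C57BL/6J wild type mice, 10 weeks old, housed in mild cold under a light:dark cycle. Time is Zeitgeber Time (ZT), in hours after lights on, with the light (inactive) phase from ZT0 and the dark (active) phase from ZT12. At each of 8 times, 3 h apart, 4 mice were killed and 1 library was made per mouse, without any treatment or engineered allele in any group. Lane 2 of the sequencer took ZT0 to ZT6, lane 3 took ZT9 to ZT15 and lane 4 took ZT18 and ZT21, so that lane and time of day cannot be told apart between lanes.

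Mitochondrial carriers are small proteins of the inner membrane that move nucleotides, phosphate, coenzymes, carboxylates, amino acids and iron between the cytosol and the matrix, mostly by exchanging one substrate for another. Brown adipocytes are packed with mitochondria and draw on these routes for oxidation, for heat production and for exporting citrate, from which fatty acids are made. Uncoupling protein 1 (UCP1), which lets protons back into the matrix and so releases heat, belongs to the same protein family under another name.

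Each library held between 16300770 and 18254659 counts. The 10 brown adipocyte markers together took 9510 to 15354 CPM (counts scaled to library size and composition) per mouse, and none of them was at 0. Markers of skeletal muscle were present too: 11 of them summed to between 2.62 and 7591 CPM, and 8 libraries, spread over ZT0, ZT3, ZT12, ZT15, ZT18 and ZT21, lay over 5 times the median. The 24 others still held up to 2468 CPM of them. Markers of white adipocytes averaged 53.7 CPM at ZT6, their lowest time, and 240 at ZT15, their highest. Those of endothelium averaged 735 CPM at ZT3, their highest, and 525 at ZT12, their lowest. Whether this bears on the carriers was not tested. Values are levels of RNA in the whole depot, in which fewer cells of a type and less RNA per cell cannot be told apart.

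The members spanned a wide range of levels. Per kb of exon, the ADP/ATP translocase Slc25a5 and the citrate carrier Slc25a1 stood highest, with a mean of 254 and 252 CPM per kb over 32 mice, followed by the translocase Slc25a4 with 159. The translocases exchange matrix ATP for cytosolic ADP. Also abundant were Slc25a39, which is needed for glutathione in the matrix (86.0), the NAD+ carrier Slc25a51 (79.7) and the oxoglutarate carrier Slc25a11 (71.7). At the other end Slc25a53, a carrier without a settled substrate, had 0.431 CPM per kb.

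Slc25a5 was also among the steadiest members, and its 32 mice ran from 352 to 472 CPM. At ZT0, its highest time, the mice had 448, 459, 466 and 445 CPM and at ZT9, its lowest, 419, 422, 352 and 384. The mice of ZT0 all lay above those of ZT9, but the 24 h cosine (adjusted p = 0.169) and the test over all times (adjusted p = 0.202, edgeR) did not pass. A processed pseudogene of Slc25a5 exists in the annotation, so that the share of reads counted for the gene is uncertain.

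Slc25a1 varied most between mice of the same time among the abundant carriers, with 178 to 1050.1 CPM over the 32 mice. Its mice had 731, 671, 1050.1 and 374 CPM at ZT0 and 178, 503, 419 and 500.4 CPM at ZT15. Both groups were wide and they overlapped, and the cosine did not pass (adjusted p = 0.0725, amplitude 0.38 ± 0.13 on the log2 scale, edgeR), except without ZT0 replicate 4 (0.0385) or ZT9 replicate 1 (0.0397). In the 8 libraries rich in muscle markers its median was 403 CPM, against 574 CPM in the 24 others.

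Slc25a4, the translocase of heart and skeletal muscle, had 480.2, 372, 466 and 351 CPM in the mice of ZT15, its highest time, and 320.2, 322, 341 and 359.7 in those of ZT6, its lowest. In the 8 libraries rich in muscle markers its median was 445 CPM, against 348 CPM in the 24 others. With all libraries the cosine did not pass (adjusted p = 0.117, amplitude 0.12 ± 0.05, edgeR). Without the libraries rich in muscle markers it passed (adjusted p = 0.0251, amplitude 0.13), and the test over all times gave 0.0549. Leaving out ZT3 replicate 2 alone gave 0.0264 for the cosine and 0.0281 over the times.

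**Figure D1:**
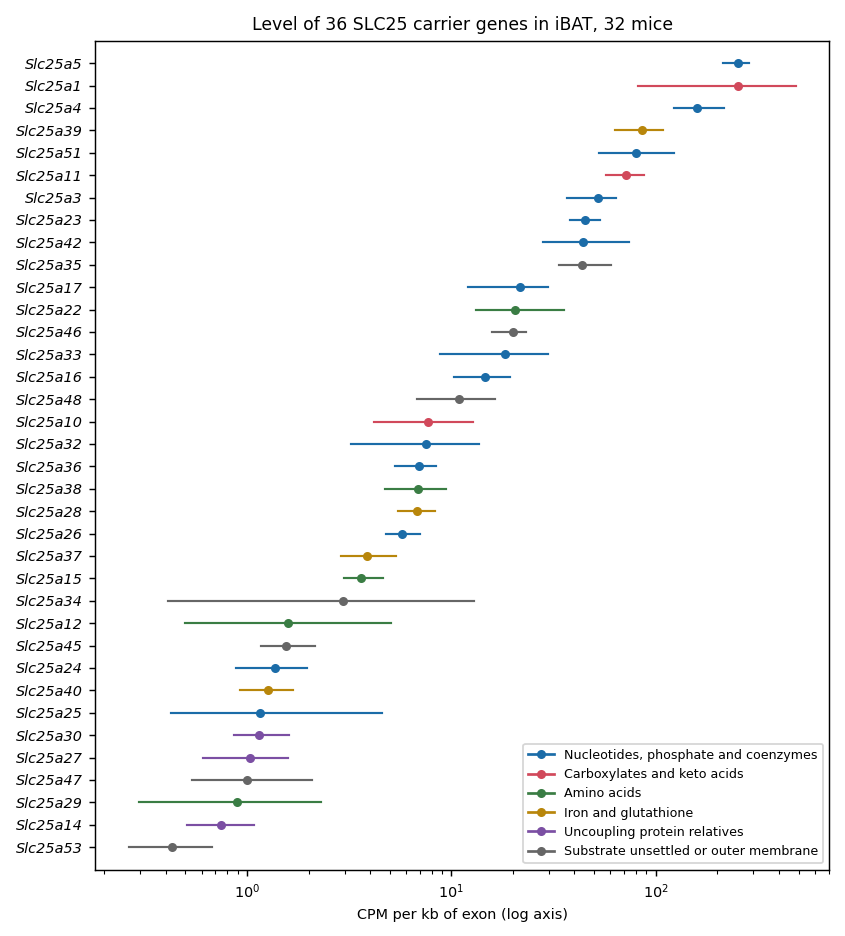
Level of 36 of the 37 carrier genes in iBAT, in CPM per kb of exon on a log axis. Points are means over 32 mice, lines run from the lowest to the highest mouse, and colours give the carried substrate. The lines of Slc25a1, Slc25a34, Slc25a12, Slc25a25 and Slc25a29 are long, while Slc25a5 and Slc25a23 stay within a narrow range.

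The main question was which carriers change over the day. A 24 h cosine, fitted to the counts of all 15505 tested genes with edgeR's quasi-likelihood test, passed the threshold (Benjamini-Hochberg, BH, 0.05) in 17 of the 37 members, or 45.9%, where 36.1% of all tested genes passed. The fitted peak of 9 of the 17 lay in the light phase and that of 8 in the dark phase, and the peak of 50.9% of all genes past the cosine lay in the light phase. A test for any difference between the 8 times passed in 19 members (51.4%, against 39.8% of all genes). By JTK, the rhythm test of the study, 19 members oscillated at P under 0.05 (36.4% of all genes) and 14 after BH adjustment (27.1% of all genes). In total 21 members passed the cosine or the time test, 15 passed both, and 16 passed neither (48.0%, 28.0% and 52.0% of all genes). Over all members the median cosine amplitude, the distance from the mean to the peak, was 0.17 on the log2 scale, beside 0.14 over all tested genes.

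By substrate, the cosine passed in 9 of 15 carriers of nucleotides, phosphate and coenzymes, in 3 of 5 amino acid carriers, in 1 of 3 carboxylate carriers, in 1 of 4 iron and glutathione carriers, in 3 of 7 members with an unsettled substrate or an outer membrane place, and in 0 of 3 relatives of the uncoupling proteins (edgeR, with Slc25a27 alone at an unadjusted p under 0.05). Of the 17 fitted peaks, 6 fell between ZT6 and ZT12, 6 between ZT12 and ZT18, 3 between ZT0 and ZT6 and 2 between ZT18 and ZT24. In the same order these windows held 35.3%, 35.3%, 17.6% and 11.8% of the members with a cosine, beside 29.3%, 19.8%, 21.6% and 29.3% of all genes with one.

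**Figure D2:**
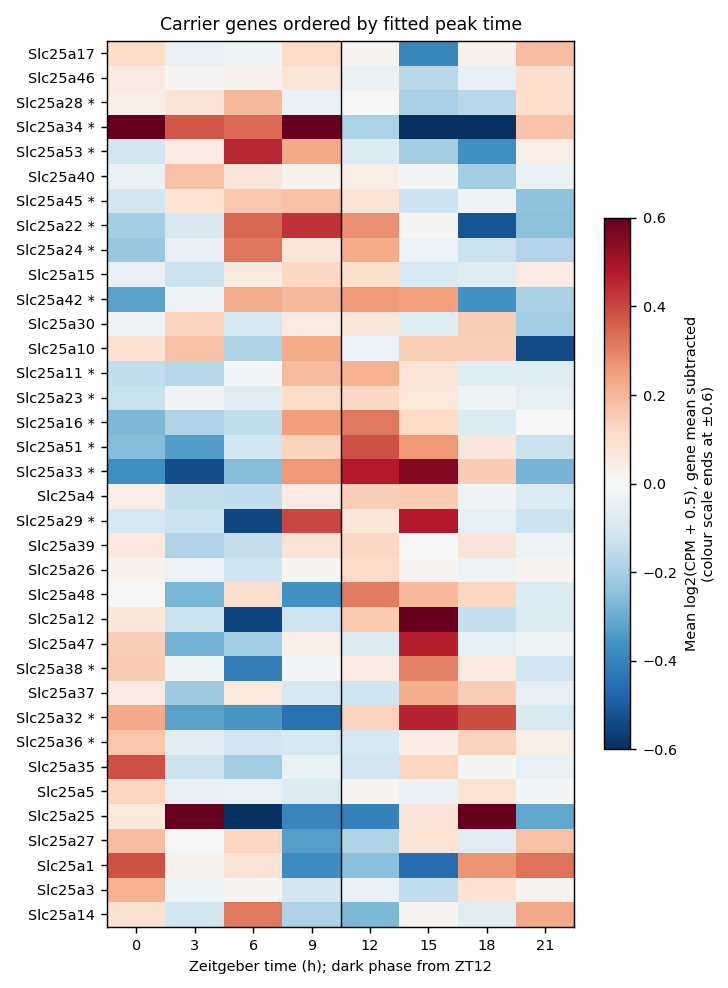
Mean log2 level of 36 of the 37 carriers at each of the 8 times (columns, ZT in h), with the mean of each gene subtracted and genes ordered by fitted peak time. Stars mark genes whose cosine passed, and the vertical line separates the light from the dark phase. Genes from Slc25a28 to Slc25a22 are high in the light phase, a block from Slc25a11 to Slc25a33 is high from ZT9 to ZT15, and Slc25a32 is high from ZT15 to ZT18 and again at ZT0.

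With lane as an additive term, which leaves mainly the differences between times on the same lane, the cosine passed in 12 members, where 17.2% of all genes passed, and 10 of these were among the 17. Between the times of lane 2, 5 members differed (13.3% of all genes): Slc25a22, Slc25a24, Slc25a35, Slc25a38 and Slc25a53. Lane 4 gave 3 members (4.48% of all genes), Slc25a22, Slc25a33 and Slc25a34. Lane 3 gave 0 members in edgeR (1.93% of all genes), and 7 had an unadjusted p under 0.05 (16.0% of all genes). Leaving out 1 library moved the count from 2 (without ZT6 replicate 1) to 7 in lane 2, up to 2 (without ZT15 replicate 1) in lane 3, and down to 1 in lane 4 (without ZT18 replicate 2 or without replicate 1, 3 or 4 of ZT21). Of the 17 cosine calls, 13 held without any 1 of the libraries and in each of 7 other settings, and Slc25a29, Slc25a32 and Slc25a38 were among the 4 that did not. Of the 12 calls beside lane, only 6 held without any 1 of the libraries and in each other setting.

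**Figure D3:**
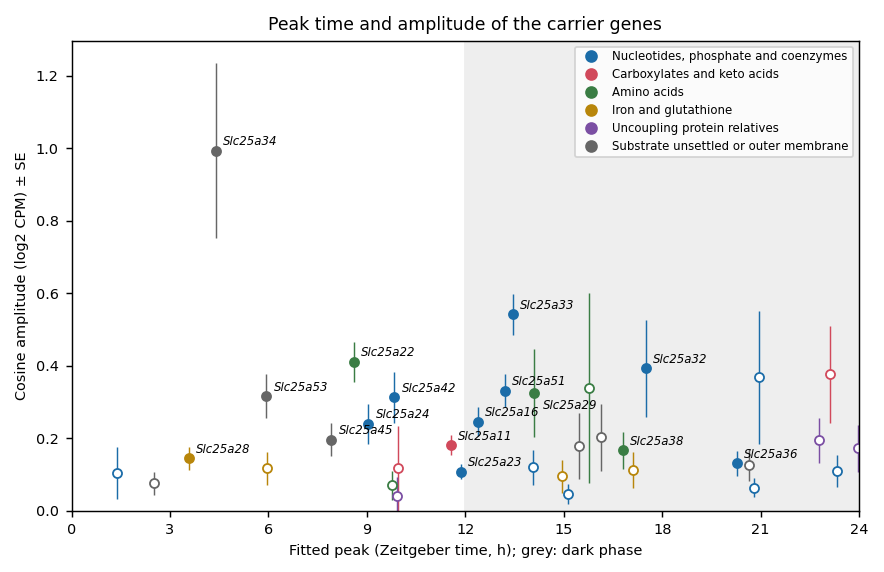
Fitted peak time (x axis, ZT in h) and cosine amplitude (y axis, log2 CPM, bars give the SE) of 36 of the 37 carriers, coloured by substrate. Filled points passed the cosine test, open points did not. Slc25a34 stands apart at an amplitude of 0.99 and ZT4.39, and the nucleotide and coenzyme carriers Slc25a42, Slc25a16, Slc25a51 and Slc25a33 lie between ZT9.84 and ZT13.5.

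Among carriers of nucleotides, phosphate and coenzymes, Slc25a33 (ENSMUSG00000028982, chr4:149744036-149774277, minus strand, GRCm38), which brings pyrimidine nucleotides into the matrix, had the clearest rhythm. In the light phase its mice had 30.3, 29.7, 27.6 and 16.6 CPM at ZT0, 26.0, 22.2, 20.8 and 21.6 at ZT3, 29.8, 21.9, 29.6 and 28.8 at ZT6 and 43.3, 47.2, 30.5 and 38.9 at ZT9. In the dark phase the values were 53.2, 48.2, 39.0 and 44.1 CPM at ZT12, 36.4, 50.6, 55.9 and 52.9 at ZT15, 39.0, 35.7, 37.1 and 34.5 at ZT18 and 26.1, 30.1, 25.6 and 26.5 at ZT21. All 12 mice of ZT12, ZT15 and ZT18 lay above all 12 mice of ZT0, ZT3 and ZT6. The cosine peaked at ZT13.5 with an amplitude of 0.54 ± 0.06 (SE, log2), a 2.12-fold change from trough to peak (edgeR, adjusted p = 2.86e-08), and passed beside lane (adjusted p = 0.0221). Within lane 4 its mice were higher at ZT18 than at ZT21 (adjusted p = 0.0129, edgeR, and 0.0574 without the libraries rich in muscle markers).

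Slc25a51, which carries NAD+ into mitochondria, rose over the same hours at a much higher level (chr4:45395923-45408766, minus strand). Its mice had 391, 346, 421 and 292 CPM at ZT0, 359.6, 308, 339.9 and 356 at ZT3, 459, 390.1, 375 and 369 at ZT6 and 508, 564, 365 and 481 at ZT9. From ZT12 on they had 679, 597, 518 and 469 CPM, then 415, 602, 535 and 523 at ZT15, 440.0, 478, 459.6 and 429.7 at ZT18 and 407, 420.2, 326 and 423 at ZT21. Every mouse of ZT12 was above every mouse of ZT0, ZT3 and ZT6. The amplitude was 0.33 ± 0.05 with a peak at ZT13.2 (adjusted p = 3.75e-06, edgeR), and beside lane it was 0.31 ± 0.11 with a peak at ZT13.4, where the cosine did not pass (adjusted p = 0.128).

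Slc25a42 and Slc25a16 are both linked to coenzyme A, which Slc25a42 brings into the matrix. Slc25a42 had 203, 188, 175 and 269.7 CPM at ZT0, 216, 263, 225 and 317 at ZT3, 254, 222, 327 and 442 at ZT6, 202, 381, 285 and 347 at ZT9, 309, 326, 318 and 282 at ZT12, 298, 292, 312 and 321 at ZT15, 181, 167, 239 and 222 at ZT18 and 273, 199, 247 and 191 at ZT21. The mice of ZT6 and ZT9 were spread widely, whereas those of ZT12 and ZT15 lay close together and above all mice of ZT0. Its cosine peaked at ZT9.84 (amplitude 0.31 ± 0.07, adjusted p = 0.00194, edgeR) and did not pass beside lane (adjusted p = 0.254, amplitude 0.24 ± 0.14). For Slc25a16 the peak was at ZT12.4, the amplitude 0.25 ± 0.04 and the adjusted p 4.9e-05 (edgeR), with 0.357 beside lane, where the amplitude was 0.11 ± 0.05. Slc25a16 averaged 86.8 CPM ± 5.30 (SD, n = 4) at ZT12 and 58.3 CPM ± 9.80 at ZT0.

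Slc25a32, the carrier linked to folate and FAD, had its highest mean at ZT15 and its lowest at ZT9. In the light phase its mice had 71.0, 52.0, 66.2 and 24.5 CPM at ZT0, 56.8, 23.5, 27.5 and 35.2 at ZT3, 46.4, 45.4, 28.9 and 19.6 at ZT6 and 37.6, 28.8, 27.6 and 30.3 at ZT9. In the dark phase they had 69.8, 42.3, 40.7 and 38.6 CPM at ZT12, 22.2, 83.3, 75.7 and 81.4 at ZT15, 68.4, 69.3, 45.2 and 44.6 at ZT18 and 36.2, 40.5, 31.0 and 54.2 at ZT21. At ZT15, 3 mice had at least 75.7 CPM and replicate 1 at 22.2. The cosine passed narrowly (amplitude 0.39 ± 0.13, peak ZT17.5, adjusted p = 0.0357, edgeR). That call held in 20 of 32 fits that left out 1 library, with the highest adjusted p, 0.068, without ZT6 replicate 4. Each of the other libraries whose loss ended the call belonged to ZT3, ZT6, ZT9, ZT15 or ZT18. Beside lane it passed in all 32 (adjusted p = 0.0132 and amplitude 0.76 ± 0.26 with every library). The test over all times did not pass (adjusted p = 0.092, edgeR), but did in 3 of 32 fits that left out 1 library. Within lanes 2, 3 and 4 alone the times did not differ either (adjusted p = 0.357, 0.228 and 0.206, edgeR).

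The calcium-regulated carriers of ATP-magnesium and phosphate, Slc25a23, Slc25a24 and Slc25a25, set the adenine nucleotide pool of the matrix. Slc25a23 rose little, from 213, 202, 236 and 218 CPM at ZT0 to 263, 256, 266 and 251 at ZT12, with an amplitude of 0.11 ± 0.02 and a peak at ZT11.9 (adjusted p = 0.00226, edgeR). Beside lane its amplitude was 0.05 ± 0.03 and the cosine did not pass (adjusted p = 0.574). Slc25a24 was scarce, with 3.53, 4.33, 3.69 and 4.06 CPM at ZT0, 5.04, 4.25, 4.87 and 3.82 at ZT3 and 6.74, 5.50, 5.27 and 6.24 at ZT6. All mice of ZT6 lay above all mice of ZT0 and ZT3, and the times of lane 2 differed (adjusted p = 0.0268, edgeR). Without the libraries rich in muscle markers that value was 0.101, and it was 0.0617 without ZT0 replicate 1, 0.0659 without ZT0 replicate 3, 0.0708 without ZT6 replicate 1 and 0.0589 without ZT6 replicate 4. The cosine of Slc25a24 passed with an amplitude of 0.24 ± 0.05 at ZT9.05 (adjusted p = 0.00441, edgeR). Beside lane its amplitude was 0.41 ± 0.11 and its adjusted p 0.0186, and 0.0579 without ZT6 replicate 1.

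The cosine of Slc25a25 (amplitude 0.37 ± 0.18) did not pass (adjusted p = 0.102, edgeR) with all libraries but did without ZT0 replicate 1 (0.0475) or ZT3 replicate 3 (0.0315), and by JTK it oscillated (P = 0.0308, exact). It differed between times (adjusted p = 0.00412, edgeR). Its mice had 6.00, 8.34, 36.0 and 17.1 CPM at ZT3, 5.55, 5.50, 4.37 and 4.68 at ZT6, 7.09, 4.94, 5.04 and 6.25 at ZT12, 8.27, 14.0, 19.9 and 17.2 at ZT18 and 5.04, 10.9, 5.18 and 5.06 at ZT21. ZT3 was the time with the widest spread, and ZT6 the lowest. The time call held without any 1 of the libraries.

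Slc25a36, the other pyrimidine nucleotide carrier, moved little and peaked late in the dark, at ZT20.3 (amplitude 0.13 ± 0.03, adjusted p = 0.0101, edgeR). Its mice had 76.1, 79.0, 80.6 and 62.5 CPM at ZT0 and 68.2, 63.0, 56.0 and 58.2 CPM at ZT12. The cosine beside lane (adjusted p = 0.0499) held in 10 of 32 fits that left out 1 library, with the highest adjusted p, 0.115, without ZT0 replicate 3, and was 0.0511 without the libraries rich in muscle markers. The phosphate carrier Slc25a3, which feeds ATP synthesis, the S-adenosylmethionine carrier Slc25a26 and the peroxisomal Slc25a17 passed neither test, with amplitudes of 0.11, 0.05 and 0.10.

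**Figure D4:**
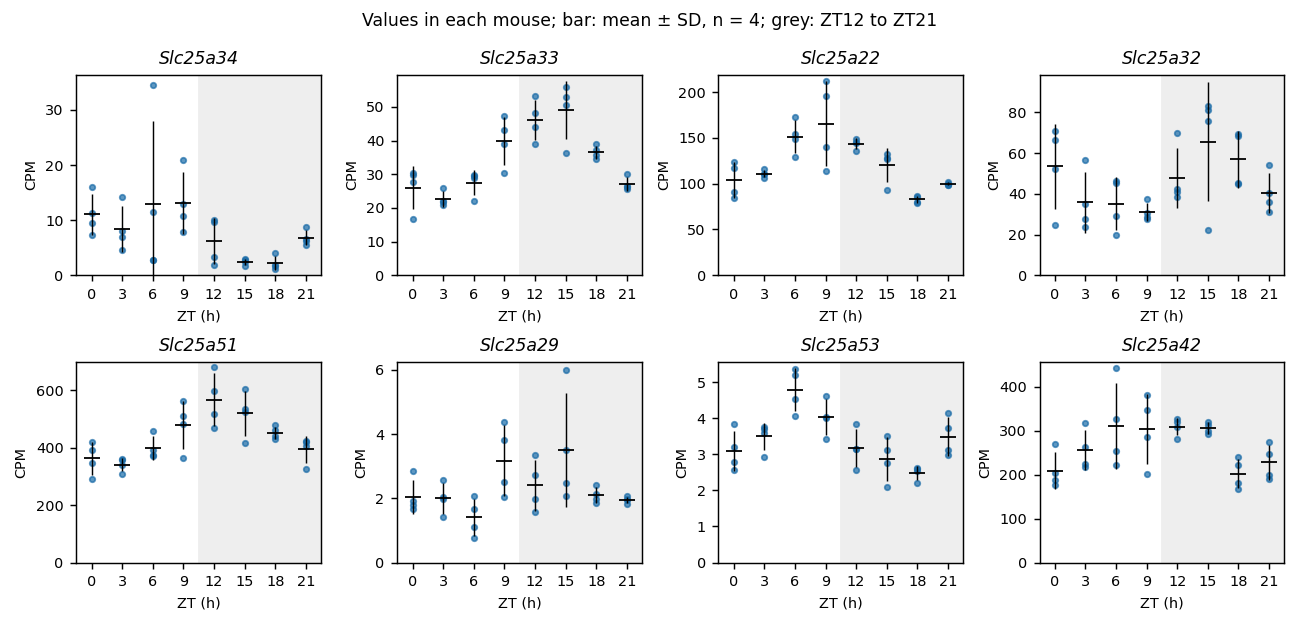
CPM in each mouse (points) at the 8 times (x axis, ZT in h) for the 8 members with the largest amplitudes among those past the cosine threshold, with the mean and SD of 4 mice as bars and the times from ZT12 to ZT21 in grey. Slc25a33 and Slc25a51 rise from ZT3 to between ZT12 and ZT15, Slc25a22 and Slc25a53 are highest at ZT6 to ZT9 and low at ZT18, and 1 mouse of ZT6 lies far above the others in Slc25a34.

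Among amino acid carriers, the glutamate carrier Slc25a22 (ENSMUSG00000019082, chr7:141429744-141437892, minus strand) changed most clearly. In the light phase its mice had 124, 90.9, 118 and 84.5 CPM at ZT0, 111, 116, 106 and 111 at ZT3, 173, 149, 155 and 129.6 at ZT6 and 196, 213, 114 and 140.0 at ZT9. In the dark phase they had 149, 145, 136 and 145 CPM at ZT12, 93.6, 128, 127 and 133 at ZT15, 78.9, 80.2, 85.9 and 86.4 at ZT18 and 102, 98.6, 98.9 and 99.5 at ZT21. All mice of ZT6 lay above all mice of ZT0 and ZT3, and all of ZT21 above all of ZT18. It peaked at ZT8.61 with an amplitude of 0.41 ± 0.06 (adjusted p = 2.21e-06, edgeR). Beside lane the adjusted p was 0.00421, and 0.0849 without the libraries rich in muscle markers.

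It was the only member that differed within 2 of the 3 lanes (adjusted p = 0.0211 in lane 2 and 0.0234 in lane 4, edgeR). Leaving out ZT6 replicate 1 or ZT6 replicate 3 gave 0.0642 and 0.0567 in lane 2. In lane 4 the value was 0.058 without ZT18 replicate 1, 0.0729 without ZT18 replicate 2, and at most 0.0683 without replicate 1, 3 or 4 of ZT21, and it was 0.0699 without the libraries rich in muscle markers. The related glutamate carrier Slc25a18 was under the minimum count.

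Slc25a38, which brings glycine in for haem synthesis, was lowest at ZT6 and highest at ZT15. Its mice had 13.0, 14.0, 14.6 and 14.1 CPM at ZT6 and 24.3, 20.3, 25.9 and 22.2 CPM at ZT15, and 20.9, 21.4, 22.8 and 18.5 CPM at ZT0. The ZT6 mice lay below all mice of every other time. The time test (adjusted p = 3.11e-05, edgeR), the difference within lane 2 (adjusted p = 0.00452) and the cosine beside lane (adjusted p = 0.000244, amplitude 0.34 ± 0.06) passed and held without any 1 of the libraries. The plain cosine (amplitude 0.17 ± 0.05, peak ZT16.8, adjusted p = 0.0299) was lost without any 1 mouse of ZT6 or without replicate 1 or 3 of ZT15, with at most 0.0699, and without the libraries rich in muscle markers (0.0833).

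Slc25a29, a carrier of basic amino acids, was scarce and scattered. Its mice had 1.67, 1.78, 1.91 and 2.84 CPM at ZT0, 1.98, 2.56, 2.03 and 1.41 at ZT3, 1.67, 0.769, 2.08 and 1.11 at ZT6 and 2.50, 2.03, 4.37 and 3.81 at ZT9. In the dark phase they had 1.56, 1.98, 2.73 and 3.34 CPM at ZT12, 5.99, 2.07, 3.50 and 2.46 at ZT15, 1.98, 2.43, 1.86 and 2.13 at ZT18 and 1.98, 1.84, 2.06 and 1.95 at ZT21. The values at ZT9, ZT12 and ZT15 overlapped those of ZT0. The cosine passed narrowly (amplitude 0.33 ± 0.12, peak ZT14.1, adjusted p = 0.0476, edgeR), held in 9 of 32 fits that left out 1 library and gave 0.133 without ZT15 replicate 1 and 0.0764 without the libraries rich in muscle markers. It did not pass beside lane either (adjusted p = 0.378, amplitude 0.40 ± 0.23, peak ZT22.9).

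The aspartate/glutamate carrier Slc25a12 of the malate-aspartate shuttle followed the muscle markers. In the 8 libraries rich in them it ran from 16.0 to 37.4 CPM with a median of 22.5, and in the 24 others from 3.64 to 16.2 CPM with a median of 5.16. The ratio of these medians was 4.37, beside ratios from 0.702 to 1.36 for the other 36 members. It passed neither test over the day (adjusted p = 0.554 for the cosine, edgeR), nor did the ornithine carrier Slc25a15 of the urea cycle (adjusted p = 0.284).

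Among carboxylate carriers, the oxoglutarate/malate carrier Slc25a11, the other carrier of the malate-aspartate shuttle, rose towards the dark phase. Its mice had 134, 150.2, 121 and 134 CPM at ZT3, 170.0, 182, 159.5 and 179 at ZT9 and 181, 184, 174 and 159 at ZT12. All mice of ZT9 and of ZT12, its highest time, lay above those of ZT3, its lowest. The peak was at ZT11.6 and the amplitude 0.18 ± 0.03 (adjusted p = 5.85e-05, edgeR), with 0.177 beside lane, where the amplitude was 0.11 ± 0.05. The exons of Slc25a11 overlap those of Rnf167 on the opposite strand over 8.92% of their length. The dicarboxylate carrier Slc25a10 (amplitude 0.12 ± 0.12, adjusted p = 0.826) did not pass.

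Among iron and glutathione carriers, the iron importer Slc25a28 (mitoferrin 2) peaked in the light at ZT3.58 with an amplitude of 0.14 ± 0.03 (adjusted p = 0.00393, edgeR). Beside lane the adjusted p was 0.114 with an amplitude of 0.16 ± 0.06. Its mice had 28.7, 26.5, 31.1 and 29.5 CPM at ZT6, its highest time, and 21.9, 20.7, 23.3 and 21.9 CPM at ZT15, its lowest, without overlap. Its relative Slc25a37 (mitoferrin 1) had 21.7, 19.2, 18.0 and 20.7 CPM at ZT3 and 29.1, 24.1, 23.6 and 32.1 CPM at ZT15. The time test of Slc25a37 (adjusted p = 0.0393, edgeR) held in 17 of 32 fits that left out 1 library, with the highest value, 0.0889, without ZT15 replicate 4, and was 0.167 without the libraries rich in muscle markers. Slc25a39 and its relative Slc25a40 passed neither test.

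Among members with an unsettled substrate, Slc25a34 (ENSMUSG00000040740, chr4:141618824-141623821, minus strand) had the largest amplitude of all 37, 0.99 ± 0.24, at a low level. In the light phase its mice had 16.0, 9.48, 11.3 and 7.34 CPM at ZT0, 7.02, 14.3, 4.52 and 7.99 at ZT3, 2.69, 2.72, 11.6 and 34.6 at ZT6 and 7.80, 20.8, 10.8 and 13.0 at ZT9. In the dark phase they had 9.73, 10.0, 3.34 and 1.92 CPM at ZT12, 2.89, 1.71, 2.33 and 2.76 at ZT15, 1.10, 1.77, 1.92 and 4.09 at ZT18 and 6.28, 5.57, 6.57 and 8.80 at ZT21. The mice of ZT6 ran from 2.69 to 34.6 CPM, whereas all mice of ZT15 and ZT18 lay below all mice of ZT0, ZT3 and ZT9. The cosine peaked at ZT4.39 with a 3.96-fold change from trough to peak (adjusted p = 0.00169, edgeR) and passed without any 1 of the libraries, at most at 0.00977 without ZT6 replicate 4. All mice of ZT21 lay above those of ZT18 on the same lane (adjusted p = 0.0342, edgeR). That difference did not pass without any 1 of 7 of the 8 mice, all but ZT18 replicate 4, with at most 0.0896. With lane in the fit the amplitude was 2.16 ± 0.52 with a peak at ZT2.71 and the cosine gave an adjusted p of 0.0139, and 0.0772 without the libraries rich in muscle markers. That amplitude is extrapolated from the few times of each lane, and the highest time mean was only 5.91 times the lowest.

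Slc25a53 peaked at ZT5.93 and was scarcer still, with a mean of 0.431 CPM per kb against 2.96 for Slc25a34. Its mice had 3.21, 2.78, 2.56 and 3.84 CPM at ZT0, 2.94, 3.71, 3.77 and 3.59 at ZT3, 5.37, 5.20, 4.54 and 4.07 at ZT6 and 4.02, 4.63, 3.43 and 4.05 at ZT9. In the dark phase they had 3.84, 3.14, 3.16 and 2.58 CPM at ZT12, 3.52, 3.13, 2.10 and 2.76 at ZT15, 2.53, 2.59, 2.20 and 2.62 at ZT18 and 4.13, 2.98, 3.12 and 3.74 at ZT21. All mice of ZT6 lay above all mice of ZT0 and ZT3, and all mice of ZT18 below all mice of ZT21. The cosine had an amplitude of 0.32 ± 0.06 and passed alone (adjusted p = 0.000903, edgeR) and beside lane (adjusted p = 0.00601). The difference within lane 2 (adjusted p = 0.0414) was lost in 10 of 12 fits that left out 1 library, with at most 0.108 without ZT6 replicate 1, and held without replicate 4 of ZT0 or of ZT6. It was 0.0635 without the libraries rich in muscle markers.

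Slc25a35, the closest relative of Slc25a34, stood at a mean of 43.7 CPM per kb, against 2.96 for Slc25a34, and had its high values at ZT0. Its mice had 223, 201, 213 and 197 CPM at ZT0, 153, 138, 151 and 144 at ZT3 and 150.2, 124, 151 and 129.9 at ZT6. All mice of ZT0 lay above all mice of every other time. The cosine did not pass (adjusted p = 0.0573, amplitude 0.13 ± 0.04, edgeR), while the time test (adjusted p = 8.86e-06), the difference within lane 2 (adjusted p = 0.00211) and the cosine beside lane (adjusted p = 0.000248, amplitude 0.33 ± 0.06) passed and held without any 1 of the libraries. The plain cosine passed in 7 of 32 fits that left out 1 library (of ZT9, ZT18 or ZT21 in all 7), with the lowest adjusted p, 0.0382, without ZT21 replicate 1. The exons of Slc25a35 overlap those of Rangrf on the opposite strand over 31.3% of their length, and the strand setting of the counting is not stated.

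Of the others, Slc25a45 passed the cosine with a peak at ZT7.92 and an amplitude of 0.20 ± 0.04 (adjusted p = 0.00672, edgeR). Slc25a48 passed only beside lane (adjusted p = 0.0455, amplitude 0.59 ± 0.20 against 0.18 ± 0.09 without lane), in 8 of 32 fits that left out 1 library and with at most 0.106, without ZT9 replicate 3. The call of Slc25a45 beside lane (adjusted p = 0.045) held in 14 of 32, with at most 0.109, without ZT0 replicate 3. Without the libraries rich in muscle markers the value beside lane was 0.237 for Slc25a45, while the plain cosine of Slc25a48 passed (0.0404). The outer membrane protein Slc25a46, which acts in mitochondrial dynamics, and Slc25a47 passed neither test.

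The relatives of the uncoupling proteins, Slc25a14, Slc25a27 and Slc25a30, were scarce, with means of 1.76, 4.09 and 5.26 CPM. Slc25a14 differed between times (adjusted p = 0.0031, edgeR), with 2.57, 2.13, 2.47 and 2.01 CPM at ZT6 and 1.20, 1.45, 1.40 and 1.37 CPM at ZT12. These groups, its highest and lowest times, did not overlap. Slc25a30 had 6.12, 5.68, 4.51 and 7.31 CPM at ZT18 and 5.66, 4.19, 3.95 and 4.20 CPM at ZT21 and passed neither test (adjusted p = 0.216 over the times), nor did Slc25a27 (adjusted p = 0.053). Slc25a27 passed the cosine (0.0215) and the time test (0.0423) without the libraries rich in muscle markers.

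The hour of lights off, ZT12, was compared with that of lights on, ZT0. All libraries of ZT0 were on lane 2 and all of ZT12 on lane 3, so that lane and time cannot be told apart in this comparison. In edgeR 8 members were higher at ZT12, where 7.71% of all genes were, and 3 were lower, where 8.15% were. The higher ones were Slc25a33 with a log2 difference of 0.83 ± 0.15 (SE), Slc25a51 (0.64 ± 0.13), Slc25a16 (0.57 ± 0.09), Slc25a42 (0.56 ± 0.19), Slc25a24 (0.49 ± 0.16), Slc25a22 (0.46 ± 0.14), Slc25a11 (0.36 ± 0.08) and Slc25a23 (0.25 ± 0.06). In all 8 the 4 mice of ZT12 lay above the 4 mice of ZT0 (5.68% of all genes were called so). Among the lower ones were Slc25a35 (-0.50 ± 0.07) and Slc25a36 (-0.28 ± 0.10), and the mice of Slc25a35 did not overlap (5.99% of all genes). The median log2 difference was 0.03 over all members and 0.00 over all tested genes.

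Without the libraries rich in muscle markers, which leaves 2 mice at ZT0 and 3 at ZT12, 4 members were higher (4.26% of all genes) and 2 lower (4.4%). The calls of Slc25a11 (0.0536), Slc25a22 (0.164), Slc25a24 (0.126), Slc25a42 (0.145) and Slc25a36 (0.0527) ended there (adjusted p, edgeR), with log2 differences of 0.35, 0.42, 0.48, 0.63 and -0.35. The calls of Slc25a42 and Slc25a36 each held in 25 of 32 fits that left out 1 library, with at most 0.119 (without ZT0 replicate 3) and 0.132 (without ZT12 replicate 3). That of Slc25a24 held in 27, with at most 0.09 without ZT0 replicate 1, and that of Slc25a22 was lost without ZT0 replicate 2 (0.0814) or ZT0 replicate 4 (0.0746). Each of the other libraries whose loss ended the calls of Slc25a42 and Slc25a24 belonged to ZT0 or ZT12, and for Slc25a36 to ZT0, ZT6 or ZT12. Of the 11 calls between ZT12 and ZT0, 5 held without any 1 of the libraries and in each other setting.

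Related carriers were compared by the log2 ratio of their CPM in each mouse, which library scaling enters only through the pseudocount of 0.5 CPM. The CPM are not per length here, so that only changes of a ratio between times are compared and not its sign. Per kb of exon the means were 18.2 for Slc25a33 against 6.92 for Slc25a36, and 3.88 for Slc25a37 against 6.75 for Slc25a28. Of 10 pairs chosen for their sequence relation, 8 had both members above the minimum count, and in 5 the ratio differed between times (permutation test, 100000 resamples, BH over 8 pairs). All 5 passed also when times were permuted within lanes, and without any 1 of the libraries.

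The pair of pyrimidine nucleotide carriers Slc25a33/Slc25a36 changed most clearly. The ratio was -1.32, -1.40, -1.53 and -1.88 in the mice of ZT0, its lowest time, and -0.36, -0.38, -0.52 and -0.40 in those of ZT12, its highest, without overlap. Slc25a33 thus stood higher relative to Slc25a36 in all mice of ZT12 than in any of ZT0 (adjusted permutation p = 8e-05, the smallest the permutations can give after adjustment, and 0.03 within lanes). For Slc25a35/Slc25a34 the mean ratio ran from 3.60 ± 0.62 (SD, n = 4) at ZT9 to 5.99 ± 0.70 at ZT18 (adjusted permutation p = 0.00678, within lanes 0.0142).

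The ratio of the mitoferrins, Slc25a37/Slc25a28, was -0.10, -0.42, -0.68 and -0.44 at ZT3, its lowest time, and 0.40, 0.22, 0.02 and 0.54 at ZT15, its highest. All mice of ZT15 lay above all mice of ZT3, and the ratio differed between times (adjusted permutation p = 0.00678, within lanes 0.0142). Slc25a30/Slc25a14 ran from 0.92 ± 0.22 at ZT21 to 1.69 ± 0.19 at ZT12 (adjusted permutation p = 0.00064, within lanes 0.00112). Slc25a25/Slc25a23 ran from -5.37 ± 0.24 at ZT12 to -4.00 ± 0.47 at ZT18 (adjusted permutation p = 0.00997, within lanes 0.03). The translocases Slc25a4/Slc25a5 did not pass (adjusted permutation p = 0.424), and their mean ratio stayed between -0.27 ± 0.27 at ZT18 and 0.03 ± 0.34 at ZT15. Slc25a39/Slc25a40 and Slc25a24/Slc25a23 did not pass either (adjusted permutation p = 0.103 and 0.103).

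**Figure D5:**
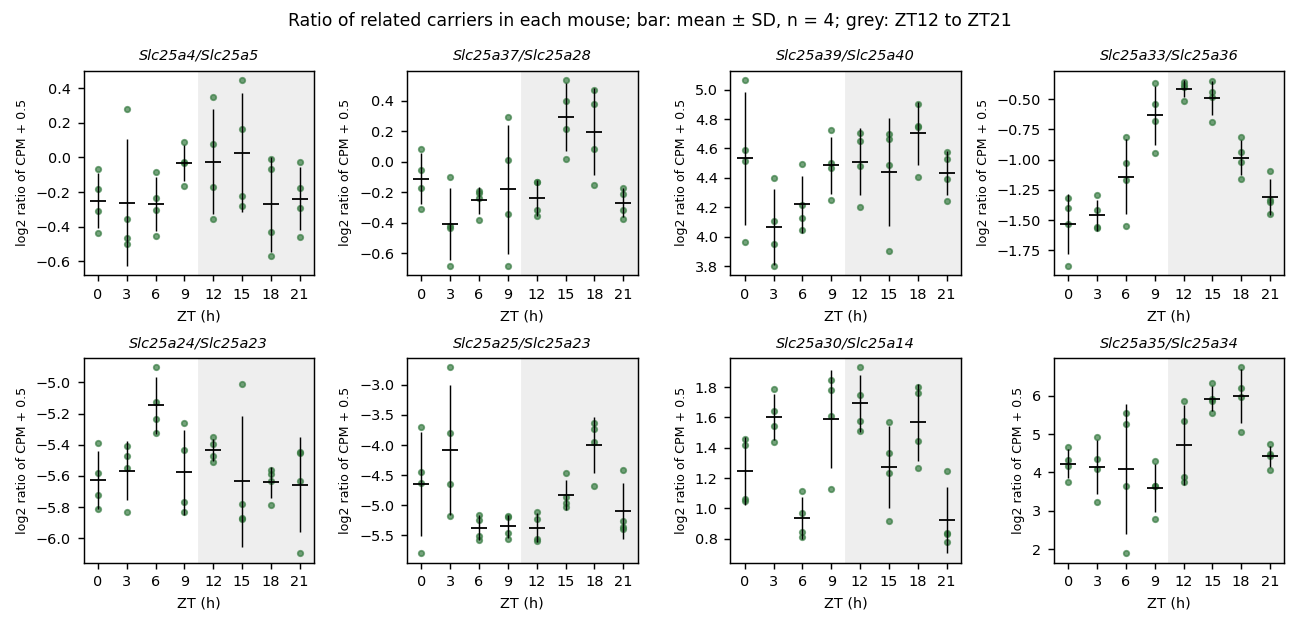
Log2 ratio of the CPM of 2 related carriers in each mouse (points) at the 8 times (x axis, ZT in h), with the mean and SD of 4 mice as bars and the times from ZT12 to ZT21 in grey. The ratio Slc25a33/Slc25a36 rises from -1.53 at ZT0 to -0.41 at ZT12, Slc25a37/Slc25a28 is lower at ZT3 than at ZT15, and Slc25a4/Slc25a5 stays near 0 with wide bars.

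The promoters of Slc25a33 and Slc25a36 are shown because the ratio of this pair had the clearest difference between times beside the spread among mice, while both windows hold the E-box CACGTG, the core sequence bound by the clock activators. The 250 bases before the start of each gene, both on the minus strand, lie at chr4:149774268-149774517 and chr9:97111042-97111291 (RefSeq, GRCm38.p6). Capitals mark the E-box in both and the cAMP response element TGACGTCA in Slc25a36.
Slc25a33: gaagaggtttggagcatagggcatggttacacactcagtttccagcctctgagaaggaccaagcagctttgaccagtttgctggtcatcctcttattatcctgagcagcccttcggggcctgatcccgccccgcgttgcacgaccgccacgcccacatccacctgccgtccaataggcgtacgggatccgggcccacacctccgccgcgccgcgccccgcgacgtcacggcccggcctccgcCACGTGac
Slc25a36: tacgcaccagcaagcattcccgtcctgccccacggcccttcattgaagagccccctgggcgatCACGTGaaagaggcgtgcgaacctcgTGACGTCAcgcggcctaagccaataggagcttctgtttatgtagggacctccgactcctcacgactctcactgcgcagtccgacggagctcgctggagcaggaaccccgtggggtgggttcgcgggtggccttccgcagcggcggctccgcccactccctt

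RefSeq promoters were found for 29 of the 37 members. In windows from 250 bases before to 50 after the start, searched on both strands, CACGTG was held by 4 members (13.8%, against 7.24% of 27025 promoters): Slc25a1, Slc25a14, Slc25a33 and Slc25a36. These are carriers with different patterns, since Slc25a33 peaked at ZT13.5, Slc25a36 at ZT20.3, Slc25a14 differed between times without a cosine and Slc25a1 did not pass. TGACGTCA was in 1 member (3.45%, against 1.88%), and the D-box TTATGTAA (0.955% of all promoters) was found in 0 of the 29 members. Palindromic motifs count once, and the motifs in these windows do not overlap one another. In the GENCODE annotation Slc25a29 and Slc25a47 lie head to head on chromosome 12 with 162 bases between them, whereas the RefSeq start of Slc25a47 lies farther away.

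Genes that serve the carriers were examined as lists. Of 5 members of the family under other symbols, the cosine passed in 2 (40%, against 36.1% of all tested genes), Ucp1 and Ucp2. Ucp1 peaked at ZT6.48 with an amplitude of 0.43 (adjusted p = 0.00958, edgeR), and Ucp2 at ZT9.23 with 0.25 (adjusted p = 0.00145). Of 13 genes of the machinery that inserts carriers into the inner membrane, the cosine passed in 4 (30.8%) and the time test in 5 (38.5%, against 39.8% of all genes), with a median amplitude of 0.08. These shares were near those of all genes. Tomm20, a receptor of the outer membrane, peaked at ZT12.4 with an amplitude of 0.18 (adjusted p = 0.000783).

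Of 8 enzymes of the malate-aspartate and citrate-pyruvate shuttles, which use what Slc25a1, Slc25a11 and Slc25a12 carry, the cosine passed in 2 (25%, against 36.1% of all genes). These were Acly, which splits exported citrate, with an amplitude of 0.86 and a peak at ZT21.7 (adjusted p = 0.00742, edgeR), and malic enzyme Me1 (0.58 at ZT0.343, adjusted p = 0.019). Of 12 other transport proteins of the mitochondrial membranes it passed in 5 (41.7%), among them the sideroflexin Sfxn2 (0.38 at ZT13.0, adjusted p = 1.39e-06) and the pyruvate carrier subunit Mpc1 (0.28 at ZT18.2, adjusted p = 0.0195). Beside lane the cosine passed in 1 gene of these lists (17.2% of all genes), Timm8a1 of the insertion machinery (edgeR, adjusted p = 0.0106).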

How the data were processed

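Gene expression was measured by stranded paired-end RNA-seq in iBAT of 32 mice. The values are raw counts per Ensembl gene as deposited by the authors, who aligned reads to mm10 with GSNAP and counted with HTSeq (0.6.1), per the labels. The strand setting of the counting is not stated, so opposite-strand overlaps could share reads. Symbols and coordinates came from a GENCODE annotation of GRCm38, which is another release than the one counted with.

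All 50686 genes entered edgeR (4.0.16, R 4.3.3). filterByExpr with the time as group kept 15505 genes, all 37 members among them, and TMM scaled the libraries. Quasi-likelihood tests covered a 24 h cosine, the 8 times, ZT12 against ZT0, lanes alone and the cosine with lane, with BH over all tested genes. JTK_CYCLE was reimplemented on CPM, with tied ranks merged in its exact null over 15 templates of 21 and 24 h. Amplitudes use log2 CPM with a prior count of 2, and ratios a pseudocount of 0.5. Scripts were tested on simulated data.

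Mice of a time are separate animals. In 48 same-time pairs of libraries the mean chi-square per gene was at least 7.97, and no library was taken as a duplicate. Members and lists were chosen with earlier results of these data known. Values per mouse or time are given for the 8 largest amplitudes past the cosine threshold and the 3 highest levels per kb. They are also given for members past the cosine beside lane whose amplitude without lane was at least 0.2, and for members of ratios that passed. Further members were named after their values were seen, and 1 member enters the counts but is not reported here. Alternatives were DESeq2 (1.42.0) and its size factors, library size, no filter, exclusion of muscle-rich libraries or mitochondrially encoded genes, a replicate block, and leaving out each library.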

Additional observations from a re-analysis of the deposited data

Results flagged for a closer look

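In the 20 members named by the stated rule, 160 groups of 4 mice were examined, and in 15 of them 1 mouse lay far from the other 3 by Dixon's 95% criterion. Slc25a11 and Slc25a38, which are also given by mouse, were not examined in this way. Chance alone flags about 1 group in 20. ZT15 replicate 1, the library with the highest sum of muscle markers, accounts for 5 of the 15. There Slc25a22 had 93.6 CPM (the others 127 to 133), Slc25a32 22.2 (75.7 to 83.3), Slc25a36 58.9 (70.9 to 71.8) and Slc25a23 227 (255.0 to 257), all lower than the others, while Slc25a24 had 6.57 (3.85 to 4.20).

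At ZT12, replicate 1 had 69.8 CPM of Slc25a32 (38.6 to 42.3) and replicate 4 had 6.63 CPM of Slc25a30 (5.06 to 5.22). At ZT9, replicate 3 had 6.09 CPM of Slc25a24 (4.46 to 4.72) and replicate 2 had 28.2 CPM of Slc25a28 (23.1 to 23.4). At ZT21, replicate 1 had 5.66 CPM of Slc25a30 (3.95 to 4.20), replicate 2 had 10.9 CPM of Slc25a25 (5.04 to 5.18) and replicate 3 had 326 CPM of Slc25a51 (407 to 423). Replicate 2 of ZT3 had 466 CPM of Slc25a4 (288 to 314) and 7531 CPM of muscle markers. Replicate 2 of ZT6 was low in Slc25a33, with 21.9 CPM (28.8 to 29.8), and replicate 2 of ZT0 in Slc25a28, with 24.1 CPM (26.3 to 26.7).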

How the results depend on the processing

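Over the 10 counts reported, the direction of no call was reversed. Without the libraries rich in muscle markers, members higher at ZT12 fell from 8 to 4, members differing within lane 2 from 5 to 3 and within lane 4 from 3 to 1. Without a filter on low counts lane 2 gave 3 members and lane 3 gave 1. The first setting tests fewer samples and the second more genes. The cosine count was 14 without that filter and 16 to 17 in the other settings, and the count of the time test 16 to 21. Leaving out 1 library each gave 14 to 18 members with a cosine, 17 to 22 differing between times, 9 to 12 with a cosine beside lane, 2 to 7 in lane 2, 0 to 2 in lane 3, 1 to 4 in lane 4, 6 to 8 higher and 2 to 3 lower at ZT12, 17 to 20 by JTK and 5 to 7 ratios. Of the cosine and ZT12 values of single members that were called or named by the stated rule, 161 no longer passed under an alternative, 16 newly passed and 2139 stayed on their side of the threshold.

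Replicate numbers are shared between times in the labels but belong to different mice. Deviations of same-numbered libraries had a median correlation of -0.06 over 112 pairs (-0.73 to 0.82), so that numbers do not pair the mice. With the replicate number as a block, 16 members had a cosine, 9 had one beside lane, 19 differed between times, and 8 were higher and 3 lower at ZT12. Scaling by library size moved the median ZT12 to ZT0 difference of all genes by 0.04 (log2). The depth behind scarce members such as Slc25a14, with 982 counts in 32 libraries, limits their precision.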

Other observations

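Slc25a1 differed widely between mice of the same time, and its relation to the shuttle enzymes was examined after these values were seen. Deviations of log2 CPM from the time means were compared over 32 mice, with mice permuted within times (100000 resamples, two-sided, BH over 9 relations). Mice with more of the citrate carrier had more Acly, which splits the exported citrate (Pearson's r = 0.95, Spearman's rho = 0.96, permutation p = 1e-05 for both, the smallest the permutations can give, adjusted 2.25e-05 and 3e-05). Within lanes 2, 3 and 4, with 12, 12 and 8 mice, r was 0.93, 0.96 and 0.97.

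Me1, which makes NADPH on the same route, gave r = 0.93 and rho = 0.96, and pyruvate carboxylase Pcx r = 0.89 and rho = 0.90 (permutation p = 1e-05 for each, adjusted 2.25e-05 for r and 3e-05 for rho). Within lanes 2, 3 and 4, r was 0.95, 0.92 and 0.94 for Me1 and 0.86, 0.96 and 0.81 for Pcx. The carrier Slc25a32 varied with Slc25a1 too (r = 0.82, rho = 0.76, permutation p = 1e-05 and 3e-05, adjusted 2.25e-05 and 5.4e-05), with r of 0.84, 0.78 and 0.94 within the lanes.

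Without the 2 mice farthest from the median of Slc25a1, ZT6 replicate 4 and ZT15 replicate 1, r was 0.93 for Acly, 0.93 for Me1, 0.82 for Pcx and 0.73 for Slc25a32. The summed muscle markers were compared in the same way with Slc25a1 and the 9 genes set against it. For Slc25a1, r was -0.18 and rho -0.22 (adjusted permutation p = 0.689 and 0.441, BH over 10 relations), with r of 0.08, -0.17 and -0.99 in lanes 2, 3 and 4. For the 8 mice of lane 4, r with the muscle markers was also -0.99 for Acly, -0.97 for Me1, -0.78 for Pcx and -0.95 for Slc25a32, so that their relations to Slc25a1 there cannot be told apart from muscle content. Without the 8 libraries rich in muscle markers, an alternative added after the values were seen, r with Slc25a1 in the 24 others was 0.96 for Acly, 0.97 for Me1, 0.90 for Pcx and 0.71 for Slc25a32 (adjusted permutation p = 3e-05 for the first 3 and 0.0014 for the last). These 24 still ranged from 2.62 to 2468 CPM of muscle markers, so that muscle content was reduced there but not removed.

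The enzymes of the malate-aspartate shuttle went both ways with Slc25a1: r was 0.75 for Mdh1 and 0.56 for Mdh2 but -0.49 for Got1 and -0.58 for Got2 (rho 0.72, 0.51, -0.49 and -0.54, adjusted permutation p for r 9e-05, 0.0156, 0.014 and 0.0012, and for rho 5.4e-05, 0.0116, 0.0116 and 0.00238). Without the same 2 mice the value for Mdh2 fell to 0.43 and did not pass (permutation p = 0.102). For the others r was then 0.66 for Mdh1, -0.47 for Got1 and -0.53 for Got2 (permutation p = 0.0015, 0.0183 and 0.0066). Within lane 2 r was 0.68 for Mdh1, 0.21 for Mdh2, -0.16 for Got1 and -0.39 for Got2. Within lane 3 r was 0.85 for Mdh1, 0.77 for Mdh2, -0.69 for Got1 and -0.69 for Got2. Within lane 4 r was 0.65 for Mdh1, 0.60 for Mdh2, -0.87 for Got1 and -0.89 for Got2. Got1 and Got2 went with the muscle markers (r = 0.72 and 0.78, rho = 0.75 and 0.78, adjusted permutation p = 0.00015 and 0.0001 for r), also without the 2 mice farthest in these markers (r = 0.68 and 0.78) and within lanes 2, 3 and 4 (r = 0.82, 0.68 and 0.88 for Got1, 0.78, 0.71 and 0.88 for Got2). Without the muscle-rich libraries the relation to Slc25a1 did not pass for Got1 (r = -0.24, adjusted permutation p = 0.365), Got2 (-0.42, 0.0702) or Mdh2 (0.42, 0.253) and passed for Mdh1 (0.74, 0.000202). Citrate synthase Cs did not pass (r = 0.40, rho = 0.36, adjusted permutation p = 0.0599 for r and 0.0645 for rho).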
